A study of Mus musculus with 4 samples.

Results

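The cells described here are lymphocytes of mouse fibrosarcomas that carried transcripts of granzyme F (Gzmf) or granzyme G (Gzmg). They were chosen from 4 single-cell RNA libraries of sorted tumour leukocytes by raw counts of unique molecular identifiers (UMIs), each of which marks 1 captured transcript. A member had at least 200 detected genes, at most 10% mitochondrial UMIs, at least 2 UMIs of Gzmf and Gzmg together, no Csf1r UMI and at most 3 UMIs of C1qa, C1qb and C1qc together. These conditions held for 182 of the 27705 cells that passed the gene and mitochondrial limits. Of the members, 109 carried a UMI of the CD3 genes Cd3d, Cd3e or Cd3g and are called Cd3-positive, and 73 carried none and are called Cd3-zero.

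The first group of tumours was Raldh1/3 DKO fibrosarcomas, in which the genes of 2 retinaldehyde dehydrogenases, enzymes that make retinoic acid, were knocked out, and the second was Cas9 control fibrosarcomas. Both groups were untreated and were harvested 11 days after implantation. Each group had 2 libraries and each library pooled the live CD45+ cells of 2 tumours, so the spread between libraries is a spread between pools, and neither the mouse strain, nor the age, nor the number of tumour clones is given in the sources used here. The knockout is a property of the tumour, and because CD45 sorting removes tumour cells the targeted genes do not check the labels here and were not analysed.

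The libraries held between 55917920 and 77760750 UMIs in cells past the filters. The median cell had 7206 and 8450 UMIs in the DKO libraries and 7349 and 7654 in the control libraries. Members were deeper, with medians of 12012.5 and 14472.5 UMIs in the DKO libraries and 10361.5 and 9858 in the control libraries. Between 20 and 38 cell barcodes were shared by each pair of libraries, and none of them belonged to members in both. The doublet caller Scrublet marked 5 of the 182 members.

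Granzymes are serine proteases stored in the granules of cytotoxic lymphocytes and released together with perforin onto a target cell. Granzymes A and B are made by many cytotoxic T cells and natural killer (NK) cells. Mice also have a group of closely related genes, granzymes C, D, E, F, G and N, which lie beside granzyme B. Granzymes C, D, E, F and G are known to be transcribed mainly in lymphocytes that have been activated for a long time. Human cells have no direct counterparts of granzymes D, E, F and G, so the roles given here are those of the mouse.

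Gzmf lies on chr14:56205263-56211417 and Gzmg on chr14:56156582-56159579, both on the minus strand of GRCm38. Stretches at or just before their start sites are near-copies of those of Gzmc, Gzmd and Gzme. The 5 stretches are printed because these are the genes whose transcripts went with Gzmf and Gzmg most closely in the cells. Each stretch is 113 bases long, reads 5′ to 3′ along the minus strand, and was taken from the RefSeq promoter table of build GRCm38.p6. The capitals mark TGACGTCA, a palindrome known as the cyclic AMP response element, or the 8 bases aligned with it.
Gzmf: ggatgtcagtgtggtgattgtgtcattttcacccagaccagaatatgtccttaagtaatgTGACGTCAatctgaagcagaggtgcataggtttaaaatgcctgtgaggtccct
Gzmg: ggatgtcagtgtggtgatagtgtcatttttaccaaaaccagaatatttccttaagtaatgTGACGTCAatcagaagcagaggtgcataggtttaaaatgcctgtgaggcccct
Gzmc: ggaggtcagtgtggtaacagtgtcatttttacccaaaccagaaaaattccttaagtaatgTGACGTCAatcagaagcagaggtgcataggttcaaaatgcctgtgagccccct
Gzmd: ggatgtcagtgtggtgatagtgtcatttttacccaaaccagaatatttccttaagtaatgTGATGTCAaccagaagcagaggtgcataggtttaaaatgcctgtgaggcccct
Gzme: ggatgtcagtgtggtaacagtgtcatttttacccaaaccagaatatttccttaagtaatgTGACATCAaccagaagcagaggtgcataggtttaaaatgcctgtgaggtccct
The positions were chr14:56211437-56211549 for Gzmf, chr14:56159604-56159716 for Gzmg, chr14:56234662-56234774 for Gzmc, chr14:56132602-56132714 for Gzmd and chr14:56120635-56120747 for Gzme. The element began 82 bases before the RefSeq start of Gzmf, 77 before that of Gzmg and 57 before that of Gzmc. These starts can differ from the ends of the gene positions given above, which are from GENCODE. Counted from 1 at the 5′ end of the element, Gzmd carried C4T and Gzme carried G5A. Of the 113 bases, 106 were identical to Gzmf in Gzmg, 105 in Gzmd, 104 in Gzme and 100 in Gzmc. Over the 223 to 240 promoter bases that could be aligned, of 250, these 4 genes were between 88.8% and 89.9% identical to Gzmf. Gzmb was identical at 146 of 207 aligned bases (70.5%) and Gzmn at 146 of 213 (68.5%). TGACGTCA was found in 508 of 32851 RefSeq promoters (1.55%) searched over 250 bases, and a match is a description of the letters, not evidence of binding.

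Gzmf and Gzmg UMIs per member ran from 2 to 5853, with a median of 21.5. The median was 16.5 in DKO 1 and 12 in DKO 2, against 8.5 in control 1 and 36.5 in control 2, so the groups overlapped. A few cells held most of these transcripts: the 5 richest members held 77.2% and 84.2% of the members' Gzmf and Gzmg UMIs in the DKO libraries and 92.0% and 55.3% in the control libraries. In the member with the highest share, from control 2, the pair took 16.6% of all UMIs. Gzmf was the more abundant in every library, at 10207 and 792 UMIs in the DKO libraries and 2843 and 12669 in the control libraries, against 6880, 199, 1075 and 8401 UMIs of Gzmg in the same order. Of the members 112 carried Gzmf alone, 10 carried Gzmg alone and 60 carried both, among them 48 of the 92 members with at least 20 UMIs.

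**Figure D1:**
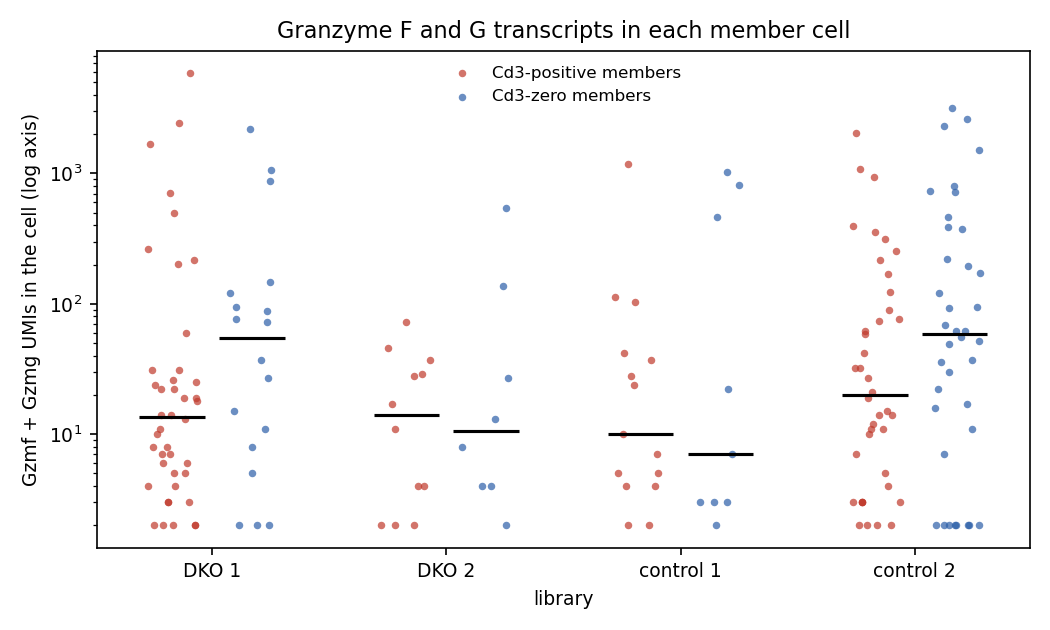
Gzmf and Gzmg UMIs in each of the 182 members (vertical log axis), by library and by the presence of a Cd3 UMI; each point is a cell and each bar is a median. The counts run from 2 to 5853 in a cell and the classes overlap in every library, with no member of DKO 2 above 540.

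The limit of 2 UMIs was close to many cells. It admitted 27 members at exactly 2 UMIs, and 209 cells that met the other conditions carried 1 UMI and stayed outside; 75 of these 209 had no Cd3 UMI. Members held 80.0% of the 53820 Gzmf and Gzmg UMIs of the series. Another 93 cells with at least 2 UMIs were left out by the Csf1r and C1q limits, and 22 of the 23 of these that had 20 or more UMIs also carried a Cd3, Ncr1 or Klrb1c UMI. Free RNA in droplets can give stray UMIs, and macrophage-gated cells (at least 2 Csf1r and 4 C1q UMIs), which are deeper than members with medians between 11810 and 17075 UMIs, served as the background. At least 2 UMIs were seen in 0.286% ± 0.00206 of macrophage-gated cells of DKO tumours and 0.459% ± 0.495 of those of control tumours (SD, n = 2 each).

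The richer a member was in Gzmf and Gzmg, the more often it carried the neighbouring granzymes. Gzmc was detected in 46.8% of the 47 members with 2 to 4 UMIs, in 79.1% of the 43 with 5 to 19, in 91.5% of the 47 with 20 to 99 and in 100% of the 45 with 100 or more. Gzmd was detected in 27.7% of the lowest range and 93.3% of the highest, and Gzme in 27.7% and 95.6%. Perforin (Prf1), which opens the target membrane, was detected in 74.5% and 100% of these ranges. Cell depth differed as well, at a median of 7939 UMIs in the lowest range and 16801 in the highest.

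Thinning each cell to 2000 UMIs removes the difference in depth, and Spearman's rho with the Gzmf and Gzmg count was then taken within each library over 178 members and averaged for 4754 genes. These values describe cells that share a library and carry no test. The highest were Gzme (0.58), Gzmd (0.57), Gzmc (0.51), Spp1 (0.47), Cd55 (0.43), Ctsg (0.36), Prf1 (0.36), AA467197 (0.34), Rack1 (0.33) and Tnfrsf9 (0.32). Spp1 encodes osteopontin, Cd55 a complement inhibitor, Ctsg the protease cathepsin G, and Tnfrsf9 the costimulatory receptor 4-1BB. In DKO 2, the library with the fewest members, the values for the first 4 genes lay between 0.23 and 0.38. Reads of these near-copies can be misassigned: of the 50-base windows in the last 500 bases of the transcripts, 20.6% of Gzmd, 18.2% of Gzme, 14.4% of Gzmg and 7.10% of Gzmf occurred in another gene of the family, and 0% of Gzmc and Gzmb did.

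The granzyme genes sit in a cluster of granule proteases that spans 320.81 kb of chromosome 14, from the mast cell chymase gene Cma1 to Gzmb on GRCm38, and detection in members differed from gene to gene along it. Gzmc was detected in 144 of 182 members, Gzme in 108 and Gzmd in 104. Gzmn, which lies between Gzmg and Gzmf, was detected in 9. Ctsg, the neighbour of Gzme, and Mcpt8, the neighbour of Ctsg, were each detected in 20 members, and Mcpt1, Mcpt2, Mcpt9 and Cma2 in 0. Beyond Gzmb, the neighbour Atp12a was detected in 0 members.

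Detection of the cluster differed between the classes. Gzme was detected in 46.8% of Cd3-positive and 78.1% of Cd3-zero members, Gzmd in 44.0% and 76.7%, Gzmc in 73.4% and 87.7%, and Ctsg in 3.67% and 21.9%. Gzmb was detected in 94.5% and 86.3%. In cells without Gzmf or Gzmg UMIs, which are defined beside their tests, these shares were lower: Gzme was detected in 1.45% of other Cd3-positive cells and 4.83% of other NK cells, and Gzmc in 5.17% and 24.5%. Both comparison classes had lower depth, and no test was made of detection shares.

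**Figure D2:**
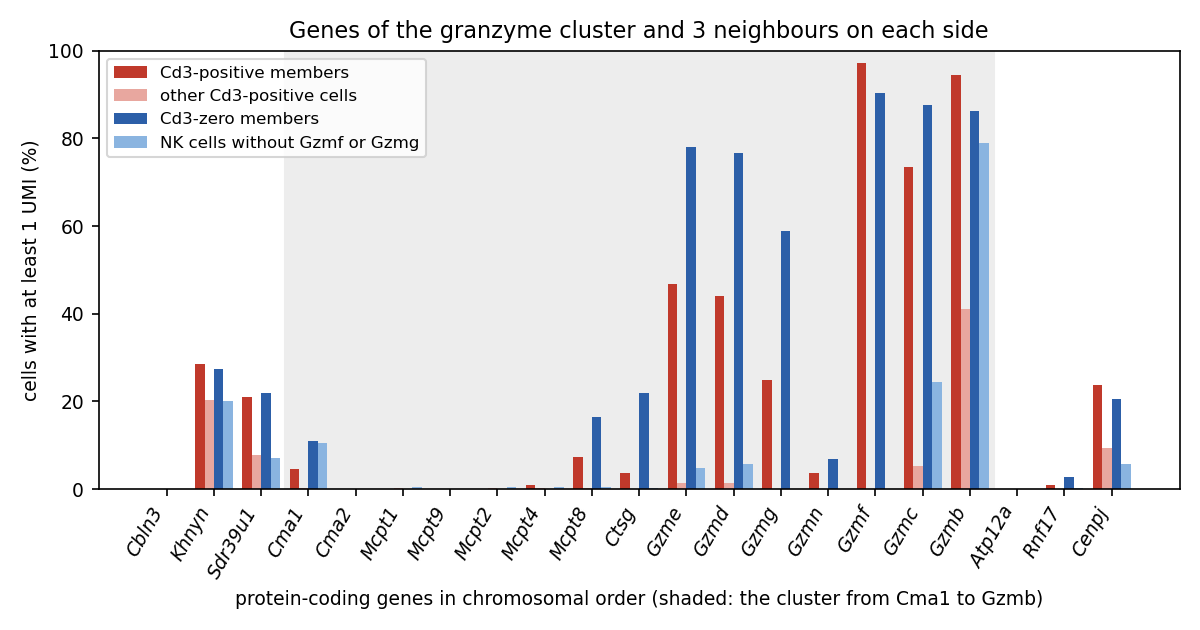
Share of cells with at least 1 UMI (vertical axis, percent) of each protein-coding gene from 3 neighbours before the protease cluster to 3 after it, in chromosomal order, for 109 Cd3-positive members, 5166 other Cd3-positive cells, 73 Cd3-zero members and 911 NK cells without Gzmf or Gzmg. Gzme, Gzmd and Gzmc are detected in most Cd3-zero members while Gzmn and the genes from Cma2 to Mcpt4 are near 0 in members; Gzmf and Gzmg define the members.

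The label lymphocyte was checked against lineage markers. Among the 109 Cd3-positive members, 57 carried Cd8a or Cd8b1 without Cd4, 13 carried Cd4 without Cd8, 4 carried both and 35 carried neither, while 85 carried Trac, the constant gene of the alpha T cell receptor chain. Another 10 carried Trdc, of the delta chain, without Trac. The NK receptor genes Ncr1 or Klrb1c were detected in 39 of them, and 32 of these 39 had no Cd4 or Cd8 UMI, so these 32 lacked a UMI of the coreceptors of conventional T cells. Foxp3, the regulatory T cell factor, was detected in 1. Among the 73 Cd3-zero members, 58 carried Ncr1 or Klrb1c, 7 carried Trac, 1 carried Cd8 and 0 carried Cd4. All 73 carried at least 1 of 9 NK markers, a list that includes Tyrobp and Fcer1g. A UMI of any of 9 genes is a loose limit in cells this deep, and no other class was set beside it. It therefore does not check the label. At 2000 UMIs a cell, Ncr1 or Klrb1c was detected in 17.6% of Cd3-positive members, 45.7% of Cd3-zero members and 8.12% of other Cd3-positive cells.

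Transcripts of other cell types were then counted. Cd79a or Ms4a1, of B cells, was detected in 1 of 182 members. Ighm, an immunoglobulin heavy chain gene of the same list, measured 99.4 and 105 CPM in Cd3-zero members of the DKO libraries and 215 and 49.0 CPM in those of the control libraries. It measured 11.7 and 25.5 CPM in Cd3-positive members of the DKO libraries and 10.8 and 25.3 CPM in those of the control libraries, and was called lower in Cd3-positive than in Cd3-zero members (log2 difference -2.45 ± 0.42, adjusted p = 0.00539, edgeR). The 10 B cell transcripts together reached 85.6 to 117 CPM in other NK cells and 20.2 to 50.4 CPM in macrophage-gated cells, and the part of free RNA in these values was not tested. The summed level of 20 macrophage transcripts, in CPM (a gene's UMIs scaled to a common total, that of all UMIs of the summed cells), was 589 and 662 in the DKO libraries and 695 and 947 in the control libraries, against at least 44283 in macrophage-gated cells of every library. Csf1r was at 0 by the rule. The 10 neutrophil transcripts of the list summed to 48.0 and 164 CPM in the DKO libraries and 37.6 and 1101 CPM in the control libraries. The high value came from Cd3-zero members of control 2, which reached 2143 CPM.

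To examine whether loss of the tumour enzymes went with a different abundance of these cells, the share of members was compared between groups. Members made up 0.914% of cells in DKO 1 (95% Clopper-Pearson interval 0.698 to 1.17) and 0.412% in DKO 2 (0.252 to 0.635), against 0.290% in control 1 (0.186 to 0.431) and 0.974% in control 2 (0.771 to 1.21). The means were 0.663% ± 0.355 in DKO tumours and 0.632% ± 0.484 in control tumours (SD, n = 2 each). The groups overlapped and libraries of the same group differed by more than the groups did (two-sided exact permutation p = 1.00, where 2 libraries against 2 can give no p below 0.333). Intervals here cover counting error only.

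Cd3-positive cells made up 70% and 60% of members in DKO tumours and 62.5% and 51.3% in control tumours, a difference within the spread of the libraries (65.0% ± 7.07 and 56.9% ± 7.93; SD, n = 2 each; exact permutation p = 0.667). With members defined by at least 1 UMI the shares no longer overlapped, at 73.2% ± 2.53 in DKO tumours and 57.2% ± 3.96 in control tumours (exact permutation p = 0.333). At that limit macrophage-gated cells, which should lack these genes but are deeper, passed in 3.29% ± 1.49 of cases in DKO tumours and 5.93% ± 5.22 in control tumours. Thinned to 2000 UMIs, macrophage-gated cells passed it in 0.332% ± 0.225 of cases in DKO tumours and 1.13% ± 0.941 in control tumours. The part of background in the 1-UMI value was not tested. With the limit set on cells thinned to 2000 UMIs the shares did not overlap either, at 60% ± 5.11 in DKO tumours and 49.0% ± 10.3 in control tumours (exact permutation p = 0.333). There, 22 of 39 and 7 of 11 members were Cd3-positive in the DKO libraries, against 9 of 16 and 25 of 60 in the control libraries. DKO 1 and control 1 were thus nearly level. As shares of comparable lymphocytes, Cd3-positive members were 1.60% ± 0.977 of Cd3-positive cells in DKO tumours and 2.35% ± 1.86 in control tumours. Cd3-zero members were 5.08% ± 2.72 of Cd3-zero members and NK cells together in DKO tumours and 10.0% ± 8.95 in control tumours (SD, n = 2 each). All of these ranges overlapped except those of the Cd3-positive share of members at 1 UMI and in thinned cells.

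Across genes, the UMIs of all members of a library were summed and the sums were compared between DKO and control libraries with edgeR's quasi-likelihood test. A gene is called here at a Benjamini-Hochberg adjusted p below 0.05. Of 6239 genes tested, 24 were called (0.385%), 13 higher in DKO (0.208%) and 11 lower (0.176%). For all 24 the 2 DKO libraries lay apart from the 2 control libraries, which choice by a small p favours. The share of such genes among all 6239 is not given here, so this is no separate support. Because a sum mixes Cd3-positive and Cd3-zero members, whose proportions also varied, fewer cells of a class and less RNA per cell cannot be told apart in these sums.

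Among the 13 genes higher in DKO, several act in the supply or use of amino acids, a grouping made after the calls were seen and not tested. Slc7a5, a transporter of large neutral amino acids, measured 73.7 and 84.4 CPM in DKO members and 15.7 and 13.9 CPM in control members, a log2 difference of 2.31 ± 0.37 (SE; adjusted p = 0.000767, edgeR). Asns, asparagine synthetase, measured 80.4 and 97.6 CPM in DKO members and 28.2 and 31.3 CPM in control members. For both genes each DKO library exceeded each control library by more than 2-fold. Phgdh and Shmt2, enzymes of serine synthesis and of one-carbon metabolism, measured 182 and 224 CPM and 92.7 and 95 CPM in DKO members, against 103 and 82.2 CPM and 31.3 and 32.4 CPM in control members. Their log2 differences were 1.04 ± 0.23 and 1.44 ± 0.31, and that of Asns was 1.42 ± 0.32 (adjusted p = 0.0199, 0.0184 and 0.0230, edgeR). Atf5, a stress-responsive transcription factor, and Eif4ebp1, a repressor of translation initiation, differed by 2.16 ± 0.49 and 1.36 ± 0.29 on the log2 scale. In DKO 2, 1 cell held 58.3% of the Atf5 UMIs.

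The other genes called higher have varied roles. Nr4a1, an early gene of antigen receptor signalling, measured 83.8 and 95 CPM in DKO members and 15.7 and 31.3 CPM in control members (log2 difference 1.63 ± 0.34, adjusted p = 0.0184, edgeR). Rora, a nuclear receptor of lymphocytes, measured 64.8 and 55.4 CPM in DKO members and 28.2 and 11.6 CPM in control members. Ccnb2, a mitotic cyclin, measured 68.2 and 135 CPM in DKO members and 21.9 and 30.1 CPM in control members. Gzmk, a granzyme of memory-type T cells, measured 58.1 and 31.7 CPM in DKO members and 9.39 and 9.26 CPM in control members, but 1 cell held 83.3% of its UMIs in DKO 2. The remaining 3 were Fam20a (2.63), a Golgi pseudokinase, Chchd10 (1.45), a mitochondrial protein, and Gm2a (1.34), a lysosomal activator protein that was also abundant in macrophage-gated cells (760.2 CPM in DKO and 593 CPM in control), with log2 differences in brackets. In DKO 2, 1 cell held 53.1% of the Chchd10 UMIs.

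Of the 11 genes called lower in DKO, 4 encode NK receptors. Ncr1, the activating receptor NKp46, measured 53.6 and 68.6 CPM in DKO members and 182 and 93.8 CPM in control members (log2 difference -1.21 ± 0.29, adjusted p = 0.0480, edgeR). Klrd1, or CD94, measured 391 and 491 CPM in DKO members and 754 and 628 CPM in control members. Klra4, an activating Ly49 receptor, measured 51.4 and 52.8 CPM in DKO members and 103 and 125 CPM in control members, and 1 cell held 51.5% of its UMIs in control 1. Klra6, another Ly49 gene, had 0 UMIs in both DKO libraries and 12 and 16 UMIs in the control libraries, at least 10.05-fold lower in DKO when the floor is 3 counts over the group. These 4 genes are of NK type, and the Cd3-positive share of members given above, higher in DKO by 8.11 percentage points, stands beside them. That share overlapped between the groups. Within Cd3-positive members alone the log2 differences were -1.23 for Ncr1, -0.84 for Klrd1 and -0.79 for Klra4. Within Cd3-zero members they were -0.53, -0.30 and -0.73, and none of these was called. Klra6 was at least 11.35-fold lower within Cd3-positive members at the same floor, also not called. The part of the Cd3-positive share in the differences over all members was not tested.

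Gzmc measured 5285 and 2928 CPM in DKO members and 9022 and 10833 CPM in control members, a log2 difference of -1.36 ± 0.28 (adjusted p = 0.0474, edgeR). With Gzmk it was 1 of 2 granzymes called. Gzmd, at 5228 and 1234 CPM in DKO members and 3666 and 8638 CPM in control members, overlapped between groups (adjusted p = 0.919), and so did Gzma at 6194 and 4281 CPM in DKO members and 2701 and 4533 CPM in control members (adjusted p = 0.796). Serpinb6b, a serpin of cytotoxic lymphocytes, measured 256 and 189.9 CPM in DKO members and 382 and 468 CPM in control members. The remaining genes lower in DKO were Pdia6 and Sdf2l1, which act in protein folding in the endoplasmic reticulum, the calcium-binding partner gene S100a10, the NADPH oxidase subunit gene Cyba, and Lyz2. Lyz2, a lysozyme gene of macrophages, measured 20.1 and 23.7 CPM in DKO members and 65.7 and 108 CPM in control members, and it also averaged 2199.7 CPM in DKO and 4875 CPM in control macrophage-gated cells. Other called genes were also present in macrophage-gated cells, at these means in DKO and control. They were 296 and 561 CPM for S100a10, 1311 and 1594 for Cyba, and 328 and 340 for Pdia6. Among genes higher in DKO, they were 137 and 116 CPM for Nr4a1 and 130 and 137 for Eif4ebp1. Serpinb6b was low there, at 4.73 and 5.71 CPM. The part of free RNA in the values of Lyz2 and these genes was not tested.

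**Figure D3:**
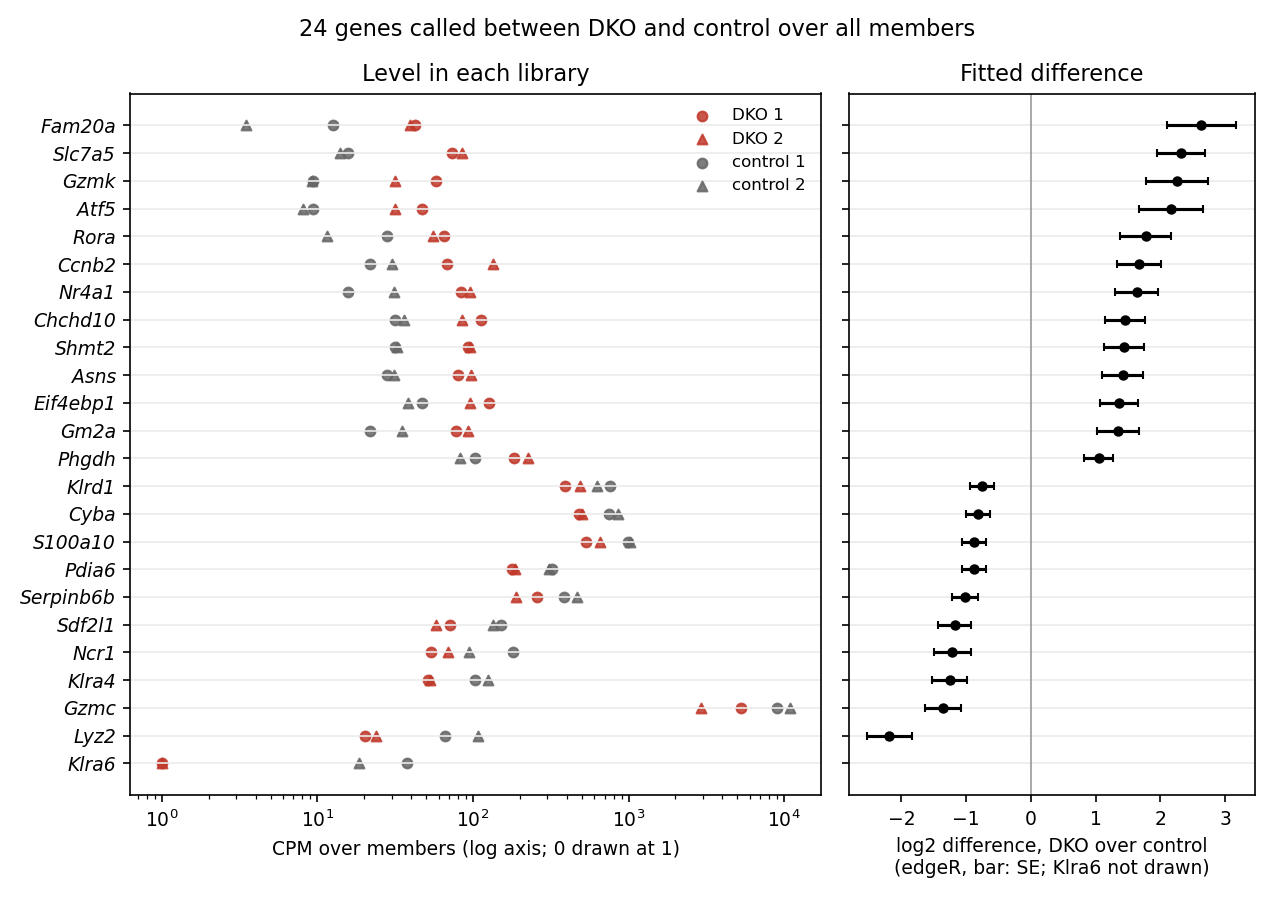
The 24 genes called between DKO and control members, with the level in each library on a log axis of CPM (left; 0 drawn at 1) and the fitted log2 difference with its standard error (right; Klra6, at 0 UMIs in DKO, is not drawn). For each gene the 2 DKO points lie on 1 side of the 2 control points, which choice by a small p favours. The fitted differences drawn run from Fam20a at 2.63 to Lyz2 at -2.19.

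These calls depended on single libraries. All 24 genes kept their sign in each fit with 1 library left out that tested them, but only Nr4a1 kept its call in all 4 fits (adjusted p up to 0.0470). Such a fit leaves 1 library in a group, which is assumed to vary like the 2 of the other. The groups lay apart for all 24 genes, so leaving 1 library out could hardly change a sign. The kept signs are therefore no separate support. Without DKO 1, 15 of the 24 were still called, without DKO 2, 19, without control 1, 20, and without control 2, 3. The adjusted p of Slc7a5 was 0.0503 without control 2 and that of Gzmc 0.309. DESeq2 called 0 of the 24, and 0 were called when members were chosen on cells thinned to 2000 UMIs.

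By list, the calls stood at 1 higher and 2 lower of 22 granzyme and cytolysis genes (median log2 difference -0.31), 0 and 2 of 23 NK lineage genes (-0.23), 0 and 2 of 8 Ly49 genes (-0.85) and 1 and 0 of 27 cell cycle genes (0.46). The median of all genes tested was 0.00. None of 23 T lineage, 24 hypoxia and glycolysis, 15 interferon response, 11 TGF-beta response and 4 retinoic acid response genes was called by edgeR. Of the retinoic acid list, which holds 17 genes, 13 were too low in members to be tested.

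Within the Cd3-positive members, 0 of 4599 genes were called between DKO and control (0%; 314 at an unadjusted p below 0.05), and within the Cd3-zero members 0 of 2492 (0%; 139 unadjusted) by edgeR and 0 in both by DESeq2. The 24 genes had the same sign in Cd3-positive members in 24 of 24 cases. Cd3-positive members held 1577439 of the 2457155 UMIs in the sums that chose these genes, so the shared sign is no separate support. Of the 24 genes, 11 were tested in Cd3-zero members, which are part of the same sums. There 10 had the same sign, Phgdh being the exception at -0.25. In Cd3-positive members the smallest adjusted p was 0.0671, shared by Slc7a5 (2.56), Asns (2.04), Shmt2 (1.93), Phgdh (1.41), Klra7 (-1.28) and Lyz2 (-2.05), where the values in brackets are log2 differences. In Cd3-zero members the smallest was that of Gadd45g, a growth arrest gene, at 90.4 CPM on average in DKO and 360.3 CPM in control (log2 difference -2.05 ± 0.31, adjusted p = 0.107, edgeR). In control 1 it was detected in 3 Cd3-zero members, 1 of which held 82.2% of its UMIs. The DKO difference was also compared between Cd3-positive and Cd3-zero members in 1 fit, where 0 of 4139 genes were called (0%; 145 unadjusted; 0 by DESeq2).

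Next, the Cd3-positive and Cd3-zero members of the same library were compared, over all 4 libraries and with library as a block. The split used the Cd3 genes, so the lineage genes that go with them describe the split. Of 4139 genes, 132 were called (3.19%), 78 higher (1.88%) and 54 lower (1.3%) in Cd3-positive members. Of 21 T lineage genes 13 were higher and 0 lower, and of 23 NK lineage genes 8 were lower and 0 higher, or 4 without DKO 1 and 5 without control 1. Trac measured between 338 and 773 CPM in Cd3-positive and between 0 and 22.2 CPM in Cd3-zero members. Cd8a measured between 269 and 471 CPM in Cd3-positive members and had no UMI in Cd3-zero members, at least 97.8-fold higher with a floor of 3 counts over the group. Ncr1 measured 39.0 ± 17.7 CPM in Cd3-positive and 206 ± 112 CPM in Cd3-zero members (SD, n = 4 each).

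Beyond lineage, 4 of the 8 cytokine and chemokine genes tested were higher in Cd3-positive members and 1, Spp1, was lower. Ifng, the gene of interferon gamma, measured 487, 437, 201 and 398 CPM in Cd3-positive members of DKO 1, DKO 2, control 1 and control 2, against 33.1, 57.3, 7.41 and 30.3 CPM in Cd3-zero members of the same libraries (log2 difference 3.58 ± 0.25, adjusted p = 4.70e-07, edgeR). Ccl3, a chemokine gene, measured 218, 91.1, 43.4 and 294 CPM in Cd3-positive and 4.74, 9.55, 0 and 49.0 CPM in Cd3-zero members (3.14 ± 0.39). Both were higher in Cd3-positive members in 4 of 4 libraries. The related gene Ccl4 differed by 4.16 ± 0.60 (adjusted p = 0.0353) and lost its call without DKO 2 (adjusted p = 0.20). The chemokine receptor gene Cxcr6 (4.98), the costimulatory receptor gene Tnfrsf4 (4.52) and the checkpoint gene Lag3 (1.66) were higher too, as log2 differences.

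Cd3-zero members were higher in another set of genes. Ccr2, a chemokine receptor, measured 79, 120.3, 54.2 and 149.5 CPM in Cd3-positive and 388, 477, 363 and 401 CPM in Cd3-zero members (log2 difference -2.08 ± 0.21). Car2, carbonic anhydrase 2, measured 132, 138, 81.3 and 193 CPM in Cd3-positive and 545, 563, 415 and 473 CPM in Cd3-zero members (-1.93 ± 0.20; both adjusted p = 2.85e-05, edgeR). The ranges of the 2 classes did not meet for either gene. Irf8 (-1.23) and Spp1 (-1.21) were lower in Cd3-positive members as well. Among granzymes, Gzme (-0.90, adjusted p = 0.0132) and Gzma (-0.92, adjusted p = 0.0119) were called lower in Cd3-positive members, though Gzme lost its call without either control library (adjusted p up to 0.089) and Gzma without DKO 2 or control 1 (up to 0.095). Gzmd (-0.98, adjusted p = 0.548) and Gzmc (-1.68, adjusted p = 0.408) were not called.

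To place the Cd3-zero members among NK cells, they were set against 911 cells of the same libraries with no Gzmf, Gzmg or Cd3 UMI, at least 2 UMIs of Ncr1 and Klrb1c, and the same Csf1r and C1q limits. Those NK cells were shallower, with medians of 4807 and 5790 UMIs in the DKO libraries and 4235 and 3741.5 in the control libraries. Of 7165 genes, 794 were called (11.1%), 386 higher (5.39%) and 408 lower (5.69%) in Cd3-zero members. With both classes limited to cells of at least 8000 UMIs, an alternative added after the data were seen, 170 of 4071 genes were called. Fewer genes could be tested there.

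Gzmd measured 5629.9, 3055, 3779.6 and 11979 CPM in Cd3-zero members of DKO 1, DKO 2, control 1 and control 2, against 185, 102, 94.2 and 202 CPM in the other NK cells (log2 difference 5.43 ± 0.17, adjusted p = 7.93e-14, edgeR). Gzmc measured 6833, 8803, 14696 and 14604 CPM in Cd3-zero members and 1326, 1018, 831 and 1017 CPM in the other NK cells (3.53 ± 0.37, adjusted p = 0.0107), but in cells of at least 8000 UMIs it was 2.24 with an adjusted p of 0.227. For neither gene did the ranges meet. The classes were split on Gzmf and Gzmg, and Gzmc, Gzmd, Gzme, Spp1, Ctsg and Prf1 were among the genes most correlated with that count. The values of these 6 genes here describe the split. Gzme was called as well (5.53 ± 0.48, adjusted p = 0.00644) but not without DKO 1 (adjusted p = 0.096). Prf1 was higher by 0.74 ± 0.13. Ctsg measured 412, 19.1, 193 and 257 CPM in Cd3-zero members and 0, 1.18, 0.864 and 0 CPM in the other NK cells. It was detected in 6, 1, 3 and 6 Cd3-zero members of these libraries. In DKO 1, 1 cell held 59.8% of its UMIs, and in control 1, 1 cell held 80.8%. In DKO 2 it had 2 UMIs. Spp1 measured 1667, 1041, 1964 and 3197 CPM in Cd3-zero members and 131, 126, 184 and 295 CPM in the other NK cells (3.57 ± 0.14, adjusted p = 5.63e-16). Not every granzyme was higher: Gzmb averaged 1846 ± 919.9 CPM in Cd3-zero members and 1606 ± 442 CPM in the other NK cells (SD, n = 4 each; adjusted p = 0.721), and Gzma fell to 6155 ± 1879 CPM in Cd3-zero members against 10782 ± 1728 CPM in the others (log2 difference -0.69 ± 0.11).

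Surface receptors and adhesion genes differed in both directions. Itga1, the integrin CD49a, measured between 163 and 468 CPM in Cd3-zero members and between 70.9 and 108 CPM in the other NK cells (log2 difference 1.83 ± 0.19). Tnfrsf9 (1.94), the inhibitory receptor gene Klrg1 (2.33) and Thy1 (1.24) were also higher. Klra4 was lower, at 175 ± 59.6 CPM in Cd3-zero members and 637 ± 108 CPM in the other NK cells (SD, n = 4 each). Of 22 NK lineage genes 10 were lower and 0 higher, among them Klrk1, the activating receptor NKG2D, at -1.05 ± 0.15. Ncr1 and Klrb1c chose the comparison cells and are not read here. Members had no such requirement, and 58 of the 73 Cd3-zero members carried either gene. The choice can also raise NK genes that go with these 2 in the comparison cells, and its part was not tested. In cells of at least 8000 UMIs 1 of 21 NK lineage genes was lower.

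Of 9 cytokine and chemokine genes tested, 4 were lower in Cd3-zero members and 2, Spp1 and Tnfsf11, were higher. Of 15 migration and egress genes 9 were lower and 0 higher (5 lower without DKO 1, 6 without control 2, and 4 of 11 in cells of at least 8000 UMIs), including Cxcr4 at -3.01 ± 0.36. Klf2, a factor of circulating lymphocytes, measured 77.9 ± 43.3 CPM in Cd3-zero members and 417 ± 83.7 CPM in the other NK cells (SD, n = 4 each; log2 difference -2.23), but in cells of at least 8000 UMIs the difference was -1.27 with an adjusted p of 0.111 (edgeR). Ccl4 measured 0, 9.55, 7.41 and 74.6 CPM in Cd3-zero members and 731, 691, 609 and 1212 CPM in the other NK cells (log2 difference -4.61 ± 0.41, adjusted p = 0.000363, edgeR). Ifng measured 33.1, 57.3, 7.41 and 30.3 CPM in Cd3-zero members and 138, 199, 185 and 201 CPM in the other NK cells (-2.37 ± 0.27). These chemokine and cytokine values were lower in Cd3-zero members in 4 of 4 libraries. Of 20 stress and immediate-early genes, which can respond to tissue digestion, 10 were lower and 2 higher, while in cells of at least 8000 UMIs 3 of 17 were lower and 0 higher.

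Of 24 hypoxia and glycolysis genes 14 were higher in Cd3-zero members and 0 lower, with a median log2 difference of 0.80 against 0.00 for all genes. Pgk1, a glycolytic kinase, measured 443 ± 72.4 CPM in Cd3-zero members and 215 ± 48.9 CPM in the other NK cells (SD, n = 4 each), and Ldha, lactate dehydrogenase, 629 ± 63.3 and 342 ± 63.0 CPM. In cells of at least 8000 UMIs 4 of 21 were higher, and without control 2, 8 of 24. Of 24 cell cycle genes 9 were higher and 0 lower, and this count moved with single libraries: it was 2 of 19 without DKO 1, 16 of 24 without DKO 2, 1 of 18 without control 1 and 9 of 24 without control 2. In the deeper cells it was 1 of 21.

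The Cd3-positive members were set against 5166 other Cd3-positive cells of the same libraries, with at least 2 Cd3 UMIs, no Gzmf or Gzmg UMI and the same Csf1r and C1q limits. These had medians between 4747.5 and 6352.5 UMIs, and differed in makeup: Cd4 was detected in 15.6% of Cd3-positive members and 32.4% of the others, Foxp3 in 0.917% and 9.27%, and Cd8a or Cd8b1 in 56.0% and 41.2%. The Cd3 limits were unlike: members needed 1 Cd3 UMI, and 9 of the 109 had exactly 1. The part of this in the differences was not tested. Of 10292 genes, 1990 were called (19.3%), 917 higher (8.91%) and 1073 lower (10.4%) in Cd3-positive members. An alternative added after the data were seen limited both classes to cells with a Cd8 and no Cd4 UMI. It called 459 of 8585 genes tested. Limited to cells of at least 8000 UMIs, another such alternative, 604 of 8460 were called.

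Gzmb measured 3369, 2190.3, 2883 and 3154 CPM in Cd3-positive members of DKO 1, DKO 2, control 1 and control 2, against 945, 741, 539 and 846 CPM in the other Cd3-positive cells (log2 difference 2.06 ± 0.11, adjusted p = 6.70e-11, edgeR). Gzmd measured 5104, 539, 3582 and 5344 CPM in Cd3-positive members and 4.67, 12.6, 3.90 and 10.1 CPM in the others (8.74 ± 1.27, adjusted p = 0.0296), and Gzmc 4807, 685, 4872 and 7112 CPM and 78.0, 54.4, 25.5 and 95.8 CPM (6.03 ± 0.93, adjusted p = 0.0341). Among Cd3-positive members of control 1, the cell richest in each gene held 82.0% of the Gzmd UMIs, 63.3% of the Gzmc UMIs and 81.6% of the Spp1 UMIs, and in DKO 1 the richest held 46.2% of the Gzmd UMIs. The ranges lay far apart, but Gzmc, Gzmd, Gzme and Prf1 each lost the call without DKO 1, control 1 or control 2, with adjusted p up to 0.23 and log2 differences no lower than 2.69 for Prf1 and 5.51 for Gzmc. Among CD8 cells Gzmc was called (3.72, adjusted p = 0.00142) and Gzmd was not (8.06, adjusted p = 0.127). Spp1 measured 1259, 372, 471 and 1789.6 CPM in Cd3-positive members and 32.6, 16.5, 19.5 and 53.2 CPM in the others (5.04 ± 0.14). These classes too were split on Gzmf and Gzmg. The values of Gzmc, Gzmd, Gzme, Prf1 and Spp1, which went with that count, describe the split. Itga1 measured 199 ± 13.6 CPM in Cd3-positive members and 79.6 ± 3.50 CPM in the others (SD, n = 4 each; 1.45 ± 0.14).

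Interferon response genes were lower in Cd3-positive members. Of 25 tested, 20 were called lower and 0 higher, with a median log2 difference of -1.48, or -1.39 with Ifit3b at its bound, against -0.02 for all genes. Irf1, a transcription factor induced by interferons, measured 74.6, 80.2, 54.2 and 36.8 CPM in Cd3-positive members and 266, 309, 249.9 and 209.6 CPM in the other Cd3-positive cells (-1.93 ± 0.16, adjusted p = 2.54e-16, edgeR). The ranges did not meet. The ubiquitin-like gene Isg15 differed by -2.11 ± 0.25 and the GTPase gene Igtp by -1.77 ± 0.18. The count was 14 to 18 of 25 with each library left out, 9 of 23 among CD8 cells and 10 of 20 among cells of at least 8000 UMIs, and Irf1, Isg15 and Igtp were called in all of these. Psmb8, an immunoproteasome gene, was not called (0.20, adjusted p = 0.179).

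**Figure D4:**
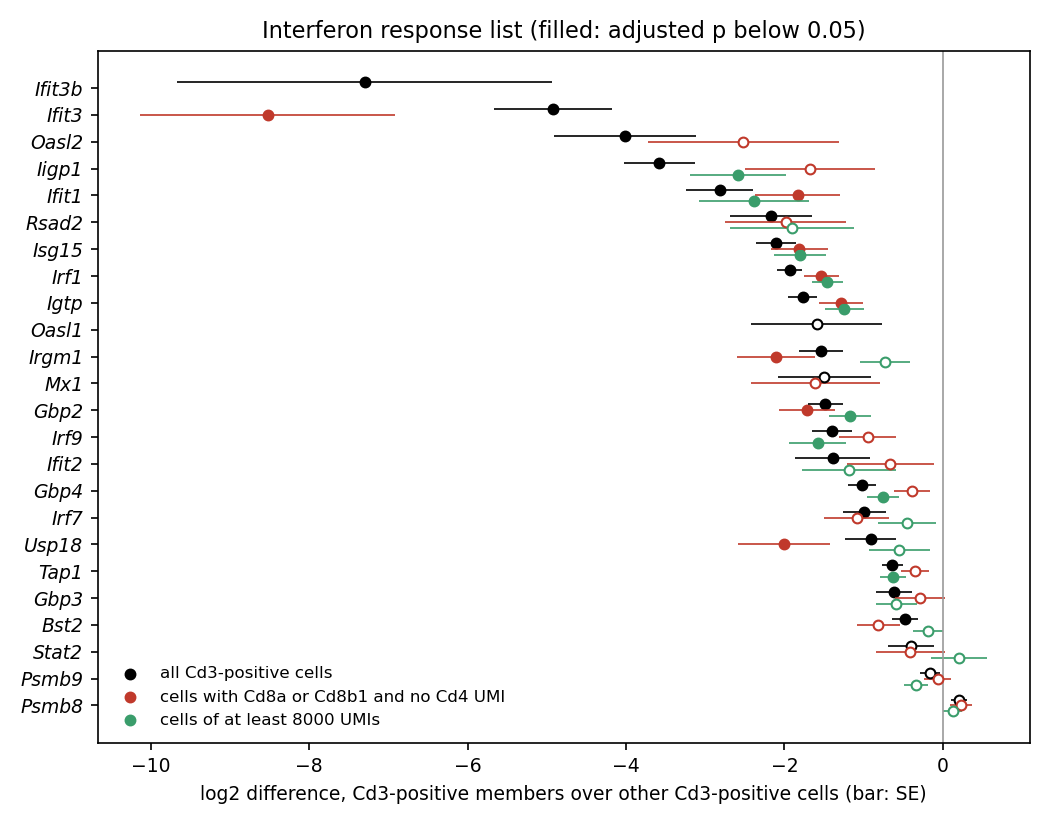
Log2 difference of 24 of the 25 interferon response genes between Cd3-positive members and other Cd3-positive cells (horizontal axis; bars, SE; filled points, adjusted p below 0.05), for all cells, for cells with a Cd8 and no Cd4 UMI, and for cells of at least 8000 UMIs. Most points lie below 0 in each setting; over the whole list 20 of 25, 9 of 23 and 10 of 20 genes were called lower.

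Of 17 migration and egress genes 9 were lower and 0 higher, 8 of 16 among CD8 cells, including Cxcr4 at 6.78 ± 6.80 CPM in Cd3-positive members and 202 ± 41.7 CPM in the others, and Klf2 at 44.9 ± 13 and 281 ± 75.1 CPM (SD, n = 4 each). Tcf7, the factor of stem-like T cells, measured 9.84 ± 8.90 CPM in Cd3-positive members and 156 ± 30.3 CPM in the others (log2 difference -3.61 ± 0.26). Ccl5, a chemokine of effector T cells, measured 200.4, 197, 211 and 251 CPM in Cd3-positive members and 2052, 1251, 2043 and 2113 CPM in the others (-2.97 ± 0.10, adjusted p = 1.87e-36, edgeR), and -2.56 among CD8 cells. Ccl5 was lower and Gzmb higher in Cd3-positive members in 4 of 4 libraries. Of 21 tissue residence genes 14 were lower and 3 higher, though among CD8 cells 1 of 17 was lower and 1 higher.

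NK receptor genes were higher in Cd3-positive members, with 14 of 24 NK lineage genes higher and 5 lower (9 and 4 without control 1). Tyrobp, an adaptor of NK receptors, measured between 226 and 1231 CPM in Cd3-positive members and between 115 and 193 CPM in the others (log2 difference 2.37 ± 0.39, adjusted p = 0.0374, edgeR), and lost its call without DKO 1 or either control library (adjusted p up to 0.15). Among CD8 cells 0 of 20 were higher and 3 lower. Klra5, a Ly49 gene, measured 71.7, 54.7, 157 and 117 CPM in Cd3-positive members and 10.4, 17.5, 10.5 and 19.5 CPM in the others (2.87 ± 0.25). Of 25 hypoxia and glycolysis genes 12 were higher and 0 lower (8 without DKO 1), 11 of 25 among CD8 cells and 2 of 25 among the deeper cells. Of 28 cell cycle genes 8 were higher (5 without DKO 2), 1 of 28 among CD8 cells, and among the deeper cells 0 were higher and 1 lower.

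**Figure D5:**
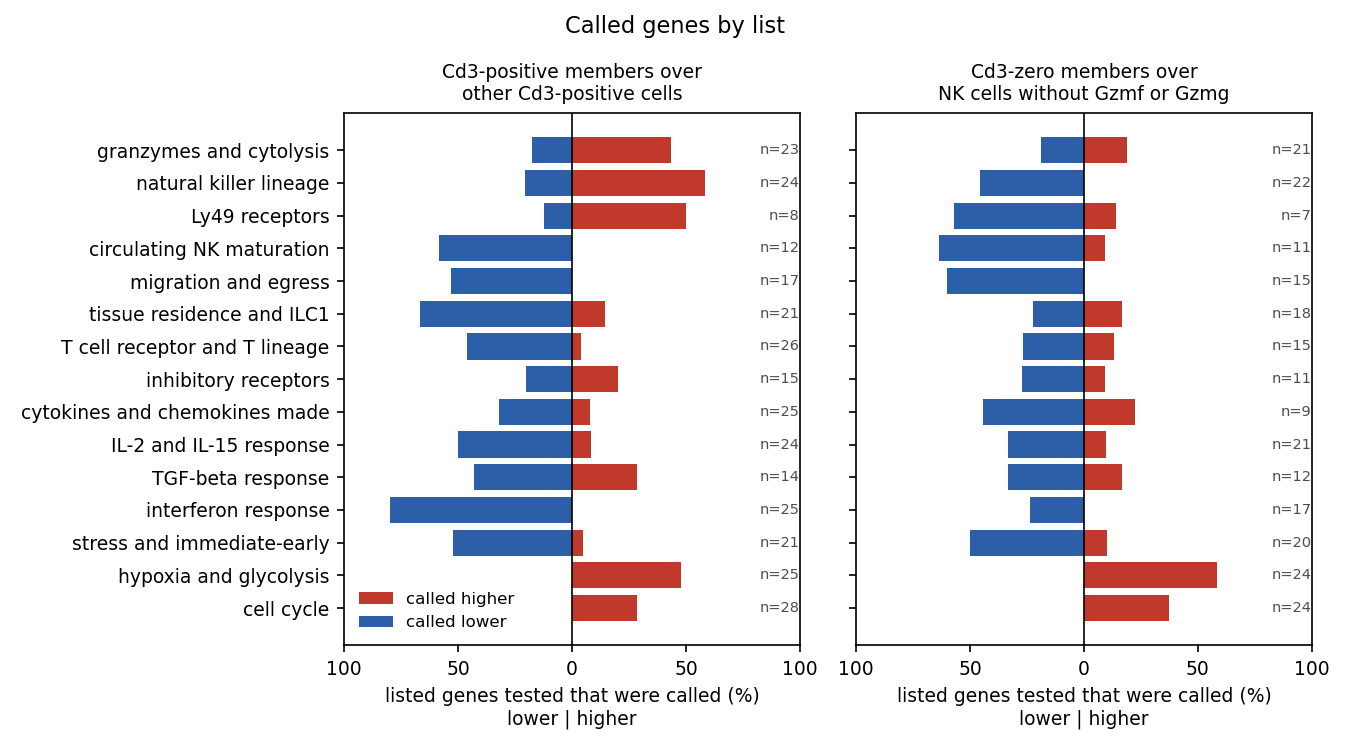
Percent of the tested genes of each list that were called higher (right, red) or lower (left, blue) in Cd3-positive members over other Cd3-positive cells (left panel) and in Cd3-zero members over NK cells without Gzmf or Gzmg (right panel); n is the number tested. Interferon response genes reach 20 of 25 called lower on the left and 4 of 17 on the right, and hypoxia and glycolysis genes have calls in the higher direction alone, 12 of 25 and 14 of 24.

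Finally, the DKO difference of Cd3-positive members was compared with that of the other Cd3-positive cells in 1 fit, a result added after the data were seen. Of 10292 genes, 10 were called (0.0972%), 5 with a more positive (0.0486%) and 5 with a more negative difference in Cd3-positive members, and 413 had an unadjusted p below 0.05. Phgdh measured 209 and 284 CPM in DKO and 86.7 and 82.8 CPM in control Cd3-positive members, against 98.8 and 87.6 CPM in DKO and 81.0 and 79.9 CPM in control cells of the comparison class (difference of log2 differences 1.30 ± 0.30, adjusted p = 0.0387, edgeR). Each DKO library exceeded each control library in both classes. Its call was lost without DKO 2, control 1 or control 2 (adjusted p up to 0.60), and DESeq2 called 0 of the 10.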

How the data were processed

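Live CD45+ cells of mouse fibrosarcomas were profiled with 10x 3′ v3 chemistry in 4 libraries, per the labels' protocols. The deposited matrices hold raw UMI counts per gene and cell for 31053 features. The submitters' processing notes name 2 builds, mm10 and GRCh38, and the tools R 3.6.0, Cell Ranger and Seurat 3.1.0, while the matrix header names software version 3.1.0. Which steps used which build is not given in the sources used here, and the genes in the matrices are those of the mouse. No deposited cell annotation was used.

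Cells with at least 200 genes and at most 10% mitochondrial UMIs were kept, 27705 of 30504 barcodes. Members, comparison cells and gene lists were chosen with earlier results of these data known, and some lists and tests were taken over from an earlier session on the same data, so they are not independent evidence. UMIs were summed per library and class, and the sums were tested with edgeR 4.0.16 (quasi-likelihood, TMM, filterByExpr, robust; R 4.3.3, limma 3.58.1), adjusted by Benjamini-Hochberg over all genes tested, with library as a block where classes of the same library were compared. Genes used to choose cells were left out of calls. Shares were compared by an exact permutation test (scipy 1.17.1). DESeq2 1.42.0, other gates, doublet removal with Scrublet (scanpy 1.11.5, 0.8% per 1000 barcodes), cells thinned to 2000 UMIs and single libraries left out were alternatives. Limits to 8000 UMIs, to CD8 cells and to cells with fewer than 20 S100a8 and S100a9 UMIs were added after the data were seen. The scripts were tested on simulated data. Free RNA was not corrected.

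Genes named are the 12 with the largest and the 12 with the smallest called log2 difference at 50 CPM or more in the higher group, members of the lists, and, where fewer than 5 were called, the 5 with the smallest p, given as not called. The 10 genes most correlated with Gzmf and Gzmg were named as well. Any other gene was chosen after its values were seen, such as the called genes below 50 CPM. Gene positions are from GENCODE vM21, to which 30934 features (99.6%) matched, and promoters from RefSeq. Libraries are pools of 2 tumours, and p-values measure the spread between pools. Some genes of the lists are counted in the list totals and are not reported here by name.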

Additional observations from a re-analysis of the deposited data

Results flagged for a closer look

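For 10 genes, the DKO difference differed between Cd3-positive members and other Cd3-positive cells in a test of the difference itself (edgeR, class-by-group term, adjusted p between 0.0124 and 0.0387), a result added after the data were seen. The values below are differences of log2 differences, and a positive value means that the DKO difference was more positive in the members.

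The term was 1.30 for Phgdh, described above. For H2afz, a histone gene, it was 0.99, with 993 and 1232 CPM in DKO and 488 and 798 CPM in control members, against 659 and 644 CPM in DKO and 741 and 750.5 CPM in control comparison cells. The order of the groups was thus opposite in the 2 classes. For Gadd45b, a stress-response gene, it was 1.38, and for Csf2, the gene of the cytokine GM-CSF, 4.09. For Izumo1r, a folate receptor family gene, it was 9.46, a fitted value that rests on 0 UMIs in the control members and is no bound.

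The negative terms were -1.31 for Nfat5, -1.08 for Serpinb6b, -2.30 for Nrp1, -3.12 for Hspa1b and -9.63 for Klra6. Nrp1, a coreceptor of semaphorins, measured 21.9 and 3.64 CPM in DKO and 54.2 and 73.6 CPM in control members, against 59.4 and 81.1 CPM in DKO and 58.3 and 52.6 CPM in control comparison cells. Klra6 had 0 UMIs in the DKO members, so its fitted value is no bound. None of the 10 was called in all 4 fits that left out 1 library, 9 kept their sign, and Hspa1b reversed without control 2, at 6.50. DESeq2 called 0 of them.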

How the results depend on the processing

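The DKO calls moved most. Over all members (24 called), the count was 70 without a low-count filter, 0 with DESeq2, 42 at a limit of 4 Gzmf and Gzmg UMIs, 0 with the limit set on thinned cells, 47 without doublets and 45 with the replicate block, and 10 to 119 with 1 library left out. In Cd3-zero members (0 called) it was 11 without a filter, 1 without doublets, 10 with the replicate block and 6 to 24 with 1 library left out. In Cd3-positive members (0 called) it was 40, 4 and 57 under the same 3 settings and 23 to 144 with 1 library left out. For the difference between the classes (0 called) it was 5 without a filter and 0 to 22. The term added after the data were seen (10 called) gave 18 without a filter, 0 with DESeq2, 25 without doublets, 0 with no replicate block and 7 to 62. The cause was not tested.

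Between classes, Cd3-positive against Cd3-zero members (132 called) gave 304 without a filter, 78 with DESeq2, 79 at 4 UMIs and 62 to 111 with 1 library left out. Cd3-zero members against NK cells (794) gave 444 with DESeq2, 170 in cells of at least 8000 UMIs and 371 to 828. Cd3-positive members against other Cd3-positive cells (1990) gave 1254 with DESeq2, 459 in CD8 cells, 604 in cells of at least 8000 UMIs and 1071 to 1839. Fewer cells entered the limited fits. With no replicate block the 3 counts were 95, 804 and 1737.

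The member share difference of 0.0306 percentage points, DKO minus control, reversed to -0.184 at 1 UMI, -0.0680 in thinned cells and -1.51 of lymphocyte-gated cells, and ran from -0.312 to 0.373 with 1 library left out; the Cd3-positive share difference was 16 at 1 UMI, 1.30 at 4 UMIs and 11.1 in thinned cells, and ran from 2.50 to 13.7 with 1 library left out. In Cd3-positive members against other Cd3-positive cells, the log2 difference reversed with the limit on thinned cells for Ctsg (-1.44) and Ifng (-0.41), and with DESeq2 for Cpa3 (0.30). In CD8 cells it reversed for Gzma (-0.31), Klrb1c (-1.31), Eomes (-0.68), Klra7 (-1.54), Rgs2 (0.21), Inpp4b (0.23), Csf1 (0.14), Tnfrsf4 (0.89), Tnfrsf18 (0.25) and Egr1 (0.061). In cells of at least 8000 UMIs it reversed for Mcm3 (-0.41), Tyms (-0.088), Rrm1 (-0.22), Cdk1 (-0.42), Top2a (-0.42) and Rrm2 (-0.56). The added term reversed for Klra6 in CD8 cells (0.59) and for Hspa1b, which ran from -3.83 to 6.50 with 1 library left out.

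Same-numbered libraries deviated from their group means with correlations of -0.07 over members, -0.01 in Cd3-positive and 0.19 in Cd3-zero members, and the labels do not say what the numbers mean. With 2 pairs these values do not settle it, so the numbers were used as names. Cell number limits the Cd3-zero members, of which DKO 2 held 8 and control 1 held 9.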

Other observations

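Of 9 retinoic acid response genes tested, 6 were called lower in Cd3-positive members than in other Cd3-positive cells and 0 higher (median log2 difference -1.24, against -0.02 for all genes, of which 10.4% were called lower). Of 6 tested in Cd3-zero members against other NK cells 3 were lower, namely Dhrs3 (-1.52), Itgb7 (-0.88) and Itga4 (-0.69), and 0 higher, where 5.69% of all genes were called lower. Dhrs3 encodes an enzyme that reduces retinaldehyde, and Itgb7 and Itga4 encode the chains of a gut-homing integrin. The members of the list have roles beyond retinoic acid. Among CD8 cells 2 of 6 were lower in Cd3-positive members, and with 1 library left out between 4 and 7 were. Without control 2, 1 of 7 was lower in Cd3-zero members, and in cells of at least 8000 UMIs 0 of 5 were by edgeR. Between DKO and control members none of 4 was called by edgeR.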
